A study of Mus musculus with 6 samples.

Results

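Cytosolic ribosomal protein genes were examined in natural killer (NK) cells sorted from the spleens of mice that lacked or retained Mettl3, the catalytic subunit of the enzyme that writes N6-methyladenosine into mRNA. Members were taken by symbol alone, as every listed gene named Rpl or Rps with a number, or Rpsa, Rplp0, Rplp1 or Rplp2. This gave 79 of the 14490 genes in the table, 47 named for the large subunit and 32 for the small subunit. Of these, 76 encode proteins of the usual mammalian ribosome, and the other 3 are the paralogue Rps27l and the copies Rpl6l and Rps4l, which GENCODE annotates as processed pseudogenes. Another 4 genes of the usual set carry other symbols, and with them all 80 were in the table. WT mice were Mettl3fl/fl animals without Cre, and cKO mice were Ncr1Cre-Mettl3fl/fl animals. Both genotypes carried the floxed allele on a C57BL/6 background, and the study used mice aged 6 to 10 weeks. The Cre was expressed from the locus of Ncr1, which marks NK cells and some related innate lymphoid cells, and Ncr1 itself carries the Cre allele in cKO mice. There were 3 polyA mRNA-seq samples per genotype, called WT-1 to WT-3 and cKO-1 to cKO-3. The labels do not say whether the samples came from separate animals, so p-values measure the spread between these samples, which may in part be technical.

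A ribosome joins a small subunit, which reads the mRNA, and a large subunit, which forms the peptide bond. Most cytosolic ribosomal proteins are present once per ribosome, and the genes for them are scattered over the genome and transcribed at high rates. Most of their mRNAs begin with a C followed by an unbroken stretch of pyrimidines, the terminal oligopyrimidine (TOP) motif, through which mTOR, LARP1 and the eIF4E-binding proteins control how well they are translated. In NK cells, IL-15 signals through AKT and mTOR and raises protein synthesis, and the study compared METTL3-deficient with control NK cells with this pathway in view. mRNA levels were measured here, and neither translation nor protein.

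The members lay on 19 chromosomes. An entry in the RefSeq promoter table of GRCm38.p6 was matched by symbol for 57 of the 79. Of these, 13 (22.8%) had at least 5 pyrimidines in a row from a C at the annotated start, compared with 3.01% of the 27025 genes of that table and 3.04% of the 9908 listed genes that matched it. The windows below run from 15 bases before to 15 bases from the annotated start, 5′ to 3′ along the gene, with the run in capitals. They are shown for part of the 13, members called in either direction and Rps21, which was not called. Rpl14, Rps10, Rps18 and Rpl15, all called lower, also had such a run and are not shown.
Rps27 (chr3:90213634-90213663, minus strand): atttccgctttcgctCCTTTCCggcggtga
Rpl35a (chr16:33056467-33056496, plus strand): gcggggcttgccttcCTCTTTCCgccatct
Rps15a (chr7:118116133-118116162, minus strand): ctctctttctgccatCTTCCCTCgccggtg
Rpl28 (chr7:4792950-4792979, plus strand): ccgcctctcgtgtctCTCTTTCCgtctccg
Rpl38 (chr11:114668565-114668594, plus strand): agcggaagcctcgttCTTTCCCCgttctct
Rps6 (chr4:86857353-86857382, minus strand): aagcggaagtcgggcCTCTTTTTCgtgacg
Rplp2 (chr7:141447636-141447665, plus strand): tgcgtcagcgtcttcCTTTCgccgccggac
Rps21 (chr2:180257364-180257393, plus strand): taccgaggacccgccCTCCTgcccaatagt
Rpl35 (chr2:39005117-39005146, minus strand): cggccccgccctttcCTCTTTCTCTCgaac
The run was 7 bases in Rps27, 8 in Rpl35a, Rps15a, Rpl28 and Rpl38, 9 in Rps6, 5 in Rplp2 and Rps21, and 11 in Rpl35. An annotated start a few bases from the one used hides such a run, so its absence from the other 44 members says only that these letters do not begin there. The motif CGGAAG, on either strand within 250 bases before and 50 after the start, was in 70.2% of the member promoters, 35.3% of those of matched listed genes and 18.8% of those of the whole table. Corresponding shares of members, matched listed genes and the whole table were 8.77%, 5.42% and 3.19% for AAGATGGC, 61.4%, 67.0% and 38.2% for GGGCGG, and 10.5%, 8.59% and 15.7% for TATAAA. These motifs were read as letters on both strands, without testing overlaps between them or binding by any factor.

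Between 55965515 (WT-2) and 71464042 (cKO-2) reads fell on listed genes per sample. Values were normalized counts, the reads of a gene divided by the sample's size factor, and each gene was compared by limma on log2(normalized count + 1), with adjusted p under 0.05 as the threshold. Mettl3 had 1303, 1258 and 1192 normalized counts in WT-1, WT-2 and WT-3 and 297, 299 and 405 in cKO-1, cKO-2 and cKO-3, a log2 fold change of −1.92 ± 0.10 (SE). Its genotypes did not overlap, and the exact permutation test gave a two-sided p of 0.1, the smallest that 3 against 3 samples allow. All 7 NK markers were abundant, 5 of them lower and 1 higher in cKO, with a summed level of 595853 to 625788 in WT and 538036 to 571055 in cKO. B-cell markers were low but 4 of 6 were higher in cKO, with sums of 657 to 743 in WT and 1018 to 1068 in cKO. Of the T-cell markers Cd3g was lower (−0.75), with means of 802 in WT and 478 in cKO. The other T-cell markers were not called and moved both ways, Cd8a (0.66) and Cd3e (0.15) up and Cd3d (−0.11) and Cd4 (−0.15) down. Of the myeloid markers Lyz2 was lower (−0.40) and Cd68 (0.20) and Adgre1 (0.25) higher. Of the innate lymphoid markers Il7r was higher (0.52), and no erythroid marker was called. T-cell marker sums were 1724 to 1919 in WT and 1338 to 1551 in cKO, myeloid sums were 6902 to 7487 and 6804 to 7633, erythroid sums were 811 to 870 and 684 to 832, and those of innate lymphoid markers were 4677 to 4980 and 5052 to 5153. The part of other cells in the results was not tested, and in such bulk samples fewer cells of a type and less RNA per cell cannot be told apart.

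Ribosomal protein mRNAs were slightly lower in cKO than in WT NK cells. The limma test called 47 of the 79 members lower and 1 higher, Rpl35, and did not call 31. The median log2 fold change over the members was −0.12, and the changes ran from −15.5% for Rpl37a to 16.1% for Rpl24, which was not called. Among all 14490 genes, 18.8% were called lower and 17.8% higher, with a median log2 fold change of 0.0014. Because the members are among the most abundant mRNAs, the closer background is the 2670 genes with a mean of at least 5000 normalized counts, of which 38.5% were lower and 20.0% higher, with a median of −0.04. These include 74 of the members, but their median level was 9739 normalized counts against 46866 for the members. The background is thus matched in level only in part. Of all members, 59.5% were called lower. No member reached the rule the study applied, an unadjusted p under 0.05 with a log2 fold change beyond 1, which 1.75% of all genes met.

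The size of the fall depended on 2 libraries. Relative to its mean over the 6 samples, the median member stood at 0.03, 0.12 and 0.03 on the log2 scale in WT-1, WT-2 and WT-3, and at −0.03, −0.02 and −0.13 in cKO-1, cKO-2 and cKO-3. Of the 79 members, 61 had their highest value in WT-2 and 66 their lowest in cKO-3. In the genes with a mean of at least 5000, the corresponding medians were 0.03, 0.02, 0.02, −0.02, −0.01 and −0.03. The members thus departed from other abundant mRNAs upward in WT-2 and downward in cKO-3, and lay within 0.01 of them in the other samples. Leaving out WT-2, or cKO-3, left 36 of the 47 members (45.6% of the 79) called lower each time, beside 36.3% of the genes with a mean of at least 5000 without WT-2 and 34.0% without cKO-3. Without both, 27 members (34.2%) were called lower and 4 higher, Rpl35, Rpl41, Rps19 and Rps21, the members' median was −0.06, and 32.8% of the abundant genes were lower. This choice was made after the values were seen, and on the members' own values, so the members' fall was bound to shrink. The nearness of the shares on these 4 samples therefore does not show that members fell like other abundant genes.

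**Figure D1:**
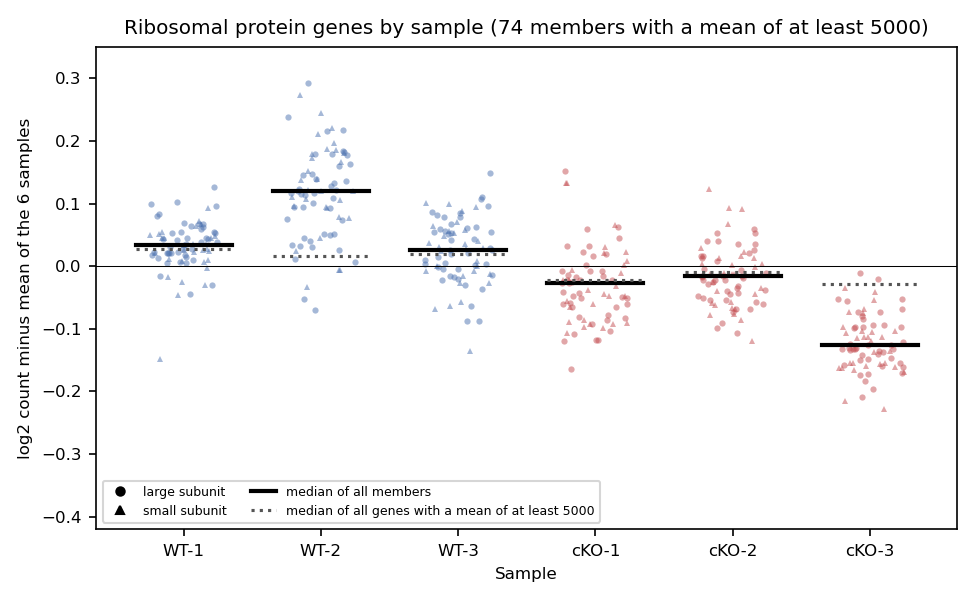
Log2 normalized count of each member minus its mean over the 6 samples, by sample, for the 74 members with a mean of at least 5000 normalized counts. Circles are large and triangles small subunit members, solid bars are the median over all 79 members and dotted bars the median of all genes with a mean of at least 5000. The solid bars stand at 0.12 in WT-2 and −0.13 in cKO-3, away from the dotted bars, and within 0.04 of 0 elsewhere.

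Summed over the members, normalized counts were 3923227, 4122329 and 3892615 in WT-1, WT-2 and WT-3 and 3740362, 3798937 and 3532586 in cKO-1, cKO-2 and cKO-3. The mean of the sums decreased by 7.26% in cKO. As a share of all normalized counts these sums were 5.89%, 6.19% and 5.89% in WT and 5.84%, 5.85% and 5.55% in cKO. The group means were 5.99 ± 0.18% (SD, n = 3) and 5.75 ± 0.17% (SD, n = 3). The genotypes did not overlap on either measure, but the gap between WT-1 and cKO-2 in the share was small against the distance of WT-2 and cKO-3 from their groups. Scaling every sample to the same total, in place of the size factors the authors used, lowered the count of falls among members to 31 and raised the count of rises to 5, Rpl35, Rpl41, Rps14, Rps19 and Rpsa. In that fit 39.2% of the members, 28.4% of the genes with a mean of at least 5000 and 13.9% of all genes were lower. Over all genes, the share of calls that were higher was 48.5% with the deposited size factors and 63.4% with equal totals. Centring on the genes with a mean of at least 5000 gave 61.2%, with 34 members lower and 4 higher. The shares lower in that fit were 43.0% of the members, 29.8% of the genes with a mean of at least 5000 and 14.6% of all genes.

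Members of both subunits fell. In the large subunit 29 of 47 members (61.7%) were lower and 1 was higher, with a median log2 fold change of −0.12. In the small subunit 18 of 32 (56.2%) were lower and none higher, with a median of −0.11. Large subunit members held 3.39%, 3.54% and 3.38% of normalized counts in WT-1, WT-2 and WT-3 and 3.34%, 3.34% and 3.18% in cKO-1, cKO-2 and cKO-3. Those of the small subunit held 2.50%, 2.65% and 2.51% in WT and 2.50%, 2.51% and 2.38% in cKO. The ratio of large to small subunit counts was 1.36, 1.33 and 1.35 in WT and 1.33, 1.33 and 1.34 in cKO. These ratios overlapped between the genotypes, and their difference of −0.991% turned to a rise of 0.53% when the 3 most abundant members were left out. Those 3, Rps3, Rpsa and Rps14, all belong to the small subunit, and without them the mean WT ratio was 1.672 in place of 1.346. Without WT-2 and cKO-3, 18 large and 9 small subunit members were lower.

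**Figure D2:**
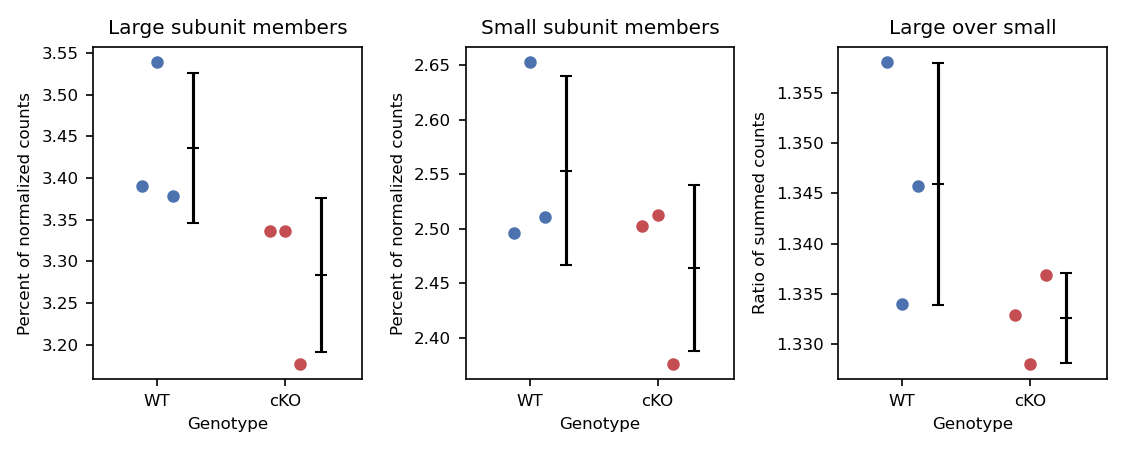
Percent of all normalized counts on large (left) and small subunit members (middle), and the ratio of the summed counts (right), in the 3 WT and 3 cKO samples. Points are samples, bars are the mean with 1 SD, and the vertical axes do not start at 0. The large subunit share separates the genotypes by 3.38% against 3.34%, while the small subunit share and the ratio overlap.

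The 6 members with the largest called falls were Rpl37a, Rps27, Rpl30, Rpl21, Rpl7 and Rps25. Rpl37a, a zinc-binding protein of the large subunit, had 43755, 48436 and 44055 normalized counts in WT-1, WT-2 and WT-3 and 39875, 39180 and 36100 in cKO-1, cKO-2 and cKO-3. All cKO values lay below all WT values, and the log2 fold change was −0.24 ± 0.04 (SE, limma adjusted p = 1.17e-05). Rps27, the gene with the pyrimidine run shown first above, had 66215, 75699 and 69605 counts in WT and 60337, 61578 and 58047 in cKO, without overlap. Its change was −0.23 ± 0.04 (SE, limma adjusted p = 1.55e-05). Rpl30 had 60222, 68353 and 60189 counts in WT and 53392, 55259 and 51920 in cKO. WT-2 was far above the other WT samples, and the change of −0.23 for all 6 samples was −0.15 without WT-2 and cKO-3, still called. Rpl21 had 40461, 41150 and 42335 counts in WT and 34053, 36839 and 35012 in cKO, a change of −0.23 ± 0.03 (SE) with WT-2 inside the range of its group. Rpl7 had 59995, 61513 and 56545 counts in WT and 51119, 52930 and 48671 in cKO, a change of −0.22 ± 0.03 (SE). Rps25, a small subunit protein used by some viral internal ribosome entry sites, had 31244, 35536 and 32760 counts in WT and 28830, 28929 and 27591 in cKO, a change of −0.22 ± 0.04 (SE). None of these 6 overlapped between genotypes, and each was called lower under all 17 alternative settings, with log2 fold changes of −0.275 at the largest and −0.148 at the smallest.

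In all, 27 members were called lower in every setting, 18 of the large and 9 of the small subunit. They are the same 27 that were lower without WT-2 and cKO-3. In that fit 34.2% of the members and 32.8% of the genes with a mean of at least 5000 were lower. How many other genes were called lower in every setting was not counted. Beside the 6 above, the 27 members included Rpl3, Rpl6, Rpl7a, Rpl10, Rpl14, Rpl15, Rpl17, Rpl18, Rpl23a, Rpl28, Rpl34, Rpl35a and Rpl36 in the large subunit and Rps2, Rps10, Rps13, Rps15a, Rps16 and Rps26 in the small subunit. At the other end, 21 members were called lower in no setting. Of the 47 members called lower, 41 had no overlap between genotypes and 6 overlapped. Over all 79 members, called or not, the cKO samples all lay below the WT samples in 42 and all above in 1. The same held for 1117 and 623 of the 2670 genes with a mean of at least 5000, and for 23.0% and 22.7% of all genes. Of the members not called, 2 did not overlap, Rps7 (lower in cKO) and Rpl24 (higher in cKO). The 95% interval of the log2 fold change lay within −0.3 to 0.3 for 74 members.

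**Figure D3:**
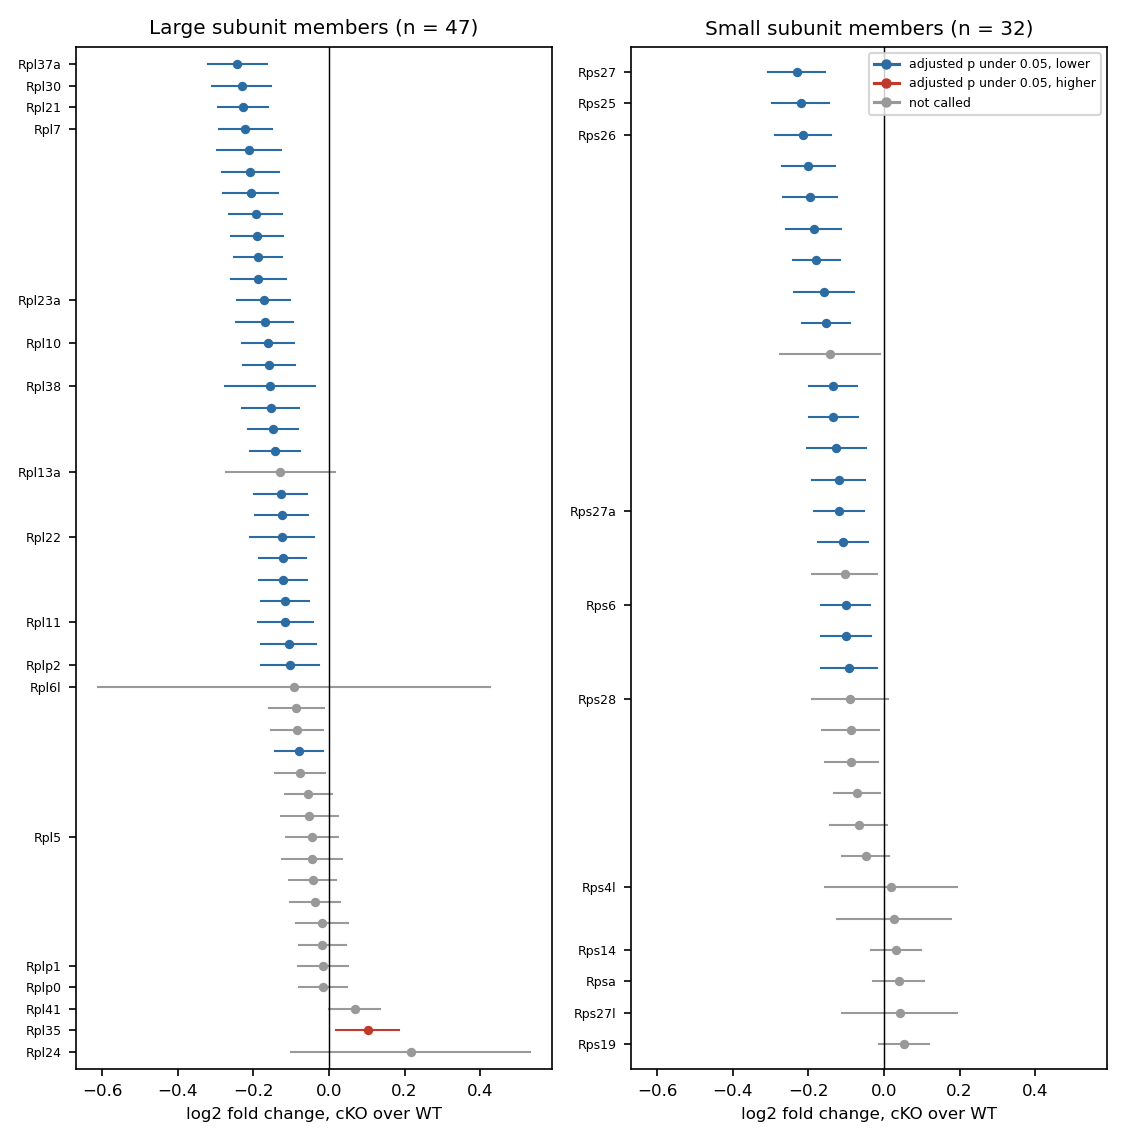
Log2 fold change of cKO over WT for each large (left) and small subunit member (right), with its 95% interval from limma. Only members named by the fixed rule are labelled. Blue marks members called lower, red the member called higher and grey those not called, and most points lie left of 0, from −0.24 for Rpl37a. The wide intervals of Rpl6l and Rpl24 belong to members with few counts.

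Rpl35, a protein beside the exit of the peptide tunnel, was the 1 member called higher. It had 12956, 12298 and 12155 normalized counts in WT-1, WT-2 and WT-3 and 14352, 13399 and 12456 in cKO-1, cKO-2 and cKO-3. The highest WT value exceeded the lowest cKO value, and the log2 fold change was 0.10 ± 0.04 (SE, limma adjusted p = 0.0471). The call was lost when WT-2, WT-3, cKO-1 or cKO-2 was left out, with values of 0.0516 to 0.154 over the 6 single omissions. Its start has a run of 11 bases. The longest run among the 13 members with one, 13 bases, was in Rpl15, which was called lower. Rpl41, which encodes the smallest ribosomal protein, had 51254, 53960 and 49727 counts in WT and 55154, 55077 and 52111 in cKO. It was not called (0.07, limma adjusted p = 0.112), and was higher past the threshold in 8 of the 17 alternatives, among them equal totals, the GC and length correction and the fit without WT-2 and cKO-3. Rps19, mutated in many patients with Diamond-Blackfan anaemia, had 35643, 36641 and 36098 counts in WT and 37362, 39200 and 35932 in cKO. Its difference of 0.05 was not called, and it was called higher in 5 alternatives.

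The acidic stalk of the large subunit recruits the elongation factors, and Rplp0, Rplp1, Rplp2 and Rpl12 build it. Only Rplp2 of these 4 was called lower, and the median of the 4 was −0.02. Rplp2 had 52365, 56833 and 51460 counts in WT and 52311, 49958 and 47296 in cKO, which overlapped, and the call of its change of −0.10 was lost in 6 alternatives, with values of −0.138 to −0.0221 over all 17. Rplp0 had 106354, 103954 and 101001 counts in WT and 102590, 106116 and 99313 in cKO. Rplp1 had 93142, 95888 and 90207 counts in WT and 93973, 93919 and 88219 in cKO. For both the groups were interleaved, and the 95% intervals ran from −0.08 to 0.05 for each, short of the −0.24 measured for Rpl37a. Rpl12 had a log2 fold change of −0.02.

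Rpl5 and Rpl11 carry the 5S rRNA into the large subunit and bind Mdm2 when assembly fails. Rpl11 had 48843, 50743 and 46129 counts in WT and 46198, 45704 and 42617 in cKO, with cKO-1 just above WT-3. It was called lower (−0.12 ± 0.04 SE, limma adjusted p = 0.0111), and no longer when either WT-2 or cKO-3 was left out. Rpl5 had 65023, 62421 and 62100 counts in WT and 61020, 64464 and 58232 in cKO, overlapped and was not called at −0.05. Of the 6 proteins around the tunnel exit, Rpl17, Rpl23a and Rpl26 were lower, Rpl35 was higher, and Rpl19 and Rpl31 were not called. Rpl23a, which docks the signal recognition particle, had 18077, 19133 and 19018 counts in WT and 16930, 17110 and 15852 in cKO, a change of −0.17 that held in all 17 alternatives.

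Rpl10, among the last proteins to join the large subunit, had 84274, 87466 and 83610 counts in WT and 76885, 79627 and 72006 in cKO. It did not overlap, and its change of −0.16 held in all 17 alternatives. Rpl22, an RNA-binding protein with a role in early lymphocyte development, changed by −0.12 and overlapped, and its call was lost without WT-2 and without cKO-3. Rpl38, known for its effect on translation of Hox mRNAs, had 21221, 25878 and 20202 counts in WT and 21780, 19610 and 18745 in cKO. One WT library was far above the other 2, cKO-1 exceeded both of these, and the change of −0.16 (limma adjusted p = 0.0340) fell to −0.0027 without WT-2 and cKO-3. Rpl13a, which takes part in interferon-dependent control of translation in monocytes, was not called at −0.13, and its level was low, as given below.

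In the small subunit, 9 of the 14 proteins of the head (64.3%) were lower and none higher, with a median of −0.12. That share is near the 56.2% of all small subunit members, and 38.5% of the genes with a mean of at least 5000 were lower. Around the exit of the mRNA channel, only Rps26 of Rpsa, Rps14, Rps26 and Rps28 was lower. Rps26, which contacts the mRNA upstream of the start codon, had 26927, 29934 and 28198 counts in WT and 24662, 25233 and 23387 in cKO, a change of −0.21 ± 0.04 (SE) without overlap. Rpsa, also known as a laminin receptor, had 114420, 108408 and 105862 counts in WT and 113397, 116255 and 107891 in cKO. Its groups were interleaved and the difference of 0.04 was not called, though it was called higher with equal totals and with centring on abundant genes. Rps14 had 102157, 103559 and 102928 counts in WT and 104575, 110951 and 100217 in cKO, so that the cKO samples spread on both sides of WT, and its 0.03 was not called. Rps28 (−0.09) overlapped and was not called, but was called lower in 3 alternatives, the replicate block and the fits without WT-3 and without cKO-1. Its value ran from −0.145 to −0.0143 over the single omissions and was 0.0414 without WT-2 and cKO-3.

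Rps6, the protein that S6 kinase phosphorylates downstream of mTOR, had 73288, 74757 and 72031 counts in WT and 66117, 71629 and 67540 in cKO. It was lower by −0.10 ± 0.03 (SE, limma adjusted p = 0.0131) without overlap, and its call was lost in 5 alternatives, including equal totals. Rps27a, which is made as a fusion with ubiquitin, had 32129, 34325 and 32367 counts in WT and 30310, 31309 and 29366 in cKO, a change of −0.12 without overlap. It was not called without WT-2 and cKO-3 or with either rescaling. The p53-responsive paralogue Rps27l had 1173, 1380 and 1073 counts in WT and 1276, 1269 and 1170 in cKO, with overlap and no call, while its partner Rps27 had the second largest fall. The difference between the partners was not tested.

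Levels of different members were compared per kb of transcript. Among the 77 protein-coding members the median was 61280 normalized counts per kb, with quartiles of 46120 and 90650, against a median of 579 for all protein-coding genes. Rps27 was highest at 189120, followed by Rplp1 at 185490 and Rps14 at 156020. At the low end, Rps27l had 2452 and Rpl13a 2371, Rps4l 837, Rpl24 253 and Rpl6l 81.4 counts per kb. Rpl24 had 146, 157 and 172 counts in WT and 181, 175 and 195 in cKO, and Rpl13a 1265, 1332 and 1087 in WT and 1149, 1137 and 1072 in cKO. Both encode core proteins of the large subunit, and how reads matching several places were counted is not given in the sources used here, so these 2 levels are uncertain. Listed processed copies of 41 members held at most 10.2% of a member's counts, for Rpl17, and over 5% in no other. Low per kb values of Rps15a (8386) and Rps20 (7507) go with the annotated transcripts of 5130 and 3706 bases used for them, and per kb of coding sequence Rps15a stood at rank 34 and Rps20 at rank 52.

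**Figure D4:**
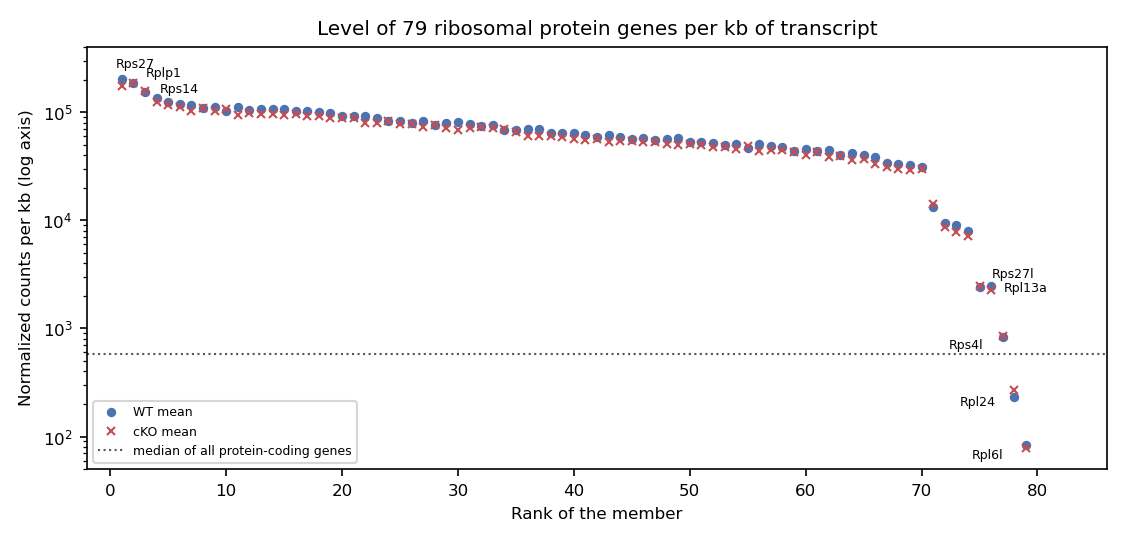
Mean normalized counts per kb of transcript for the 79 members in order of their level, on a log axis, with circles for WT, crosses for cKO and a dotted line at the median of all protein-coding genes. From Rps27 at 189120 the first 70 members range down to 30421 (Rpl5), and Rpl24 and Rpl6l lie under the dotted line.

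Features of the member mRNAs were set beside the fold changes. Member transcripts were short, with a median of 710 bases against 2478 for all protein-coding genes, and their median GC content was 52.0% against 50.9%. Across the members, Spearman's rho of the log2 fold change was 0.21 with GC content and 0.04 with mean level, over genes that share the 6 libraries. The 13 members with the pyrimidine run had a median of −0.13, with 11 lower and 1 higher, and the 44 other matched members −0.11, with 22 lower. Of the genes with a mean of at least 5000, 38.5% were lower and 20.0% higher. The difference between members with and without the run was not tested. A correction for GC content and length left 40 of the 47 members called lower. In that fit 50.6% of the members, 39% of the genes with a mean of at least 5000 and 18.7% of all genes were lower.

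Of the 8 ribosomal protein genes and paralogues that the symbol rule does not take, 6 (75%) were lower and none higher, with a median of −0.15. The share lower was 38.5% of the genes with a mean of at least 5000 and 18.8% of all genes. Fau, a fusion of a ubiquitin-like protein with eS30, had 69069, 72383 and 68811 counts in WT and 63496, 62926 and 58092 in cKO. Rack1, a scaffold on the small subunit, had 62744, 63487 and 61727 counts in WT and 56014, 56947 and 53724 in cKO. Both fell without overlap, by −0.19 for Fau and −0.17 for Rack1, and were called in all 17 alternatives. Rps3a1 (−0.13), Rpl22l1 (−0.12) and Rpl7l1 (−0.26) were also lower, and Rpl36al (0.0038) and Rps27rt (−0.11) were not called. Rpl22l1 was called in 10 of the 17 alternatives and its partner Rpl22 in 12.

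Of 18 other mRNAs with a TOP motif, 9 (50%) were lower and 1 (5.56%) higher, with a median of −0.08. Of the genes with a mean of at least 5000, 38.5% were lower and 20.0% higher, and of all genes 18.8% and 17.8%. Pabpc1, Eif3e, Eif3f, Naca, Btf3, Nap1l1, Hnrnpa1, Npm1 and Vim were lower. Vim, which encodes the filament protein vimentin, had 79579, 76146 and 74895 counts in WT and 54993, 56855 and 54042 in cKO, the largest fall of the list at −0.48. Eef1g, a subunit of the elongation factor complex, was higher by 0.12, with 24768, 25041 and 23726 counts in WT and 26222, 27666 and 26123 in cKO. Eef1a1 (−0.03), Eef2 (0.05) and Tpt1 (−0.07) were not called. Eef2 was called higher with equal totals and with centring on abundant genes, and Tpt1 was called lower with limma-voom, the replicate block and without cKO-2.

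Among 18 regulators of the translation of such mRNAs, 6 were higher, Larp1, Larp4, Larp4b, Eif4ebp1, Eif4ebp2 and Tia1, and 3 lower, Rheb, Tsc2 and Cnbp, with a median of 0.06. These shares were 33.3% higher and 16.7% lower, beside 17.8% and 18.8% of all genes. Larp1, which binds the cap and the adjoining pyrimidines, had 12589, 12152 and 12467 counts in WT and 14123, 13845 and 13724 in cKO, a rise of 0.16 ± 0.03 (SE). Eif4ebp2, a repressor of cap-dependent translation, had 9176, 8703 and 8765 counts in WT and 11741, 11907 and 11606 in cKO, a rise of 0.40 ± 0.03 (SE). Cnbp, a zinc-finger protein that binds such mRNAs, was lower by −0.25. Neither Mtor (−0.05) nor Rps6kb1 (−0.01) was called. Of 13 chaperones, importers and sensors of ribosomal proteins, Grwd1 (0.33), Tnpo1 (0.09) and Ube2o (0.31) were higher and Ltv1 (−0.24) and Mdm2 (−0.09) lower. In this list 23.1% were thus higher and 15.4% lower, near the shares of all genes. Grwd1, a chaperone of Rpl3, lost its call without cKO-2, and Mdm2 lost it in 6 alternatives.

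The mitochondrial ribosome is built from another set of nuclear genes, and 77 of them were listed. Of these 22 (28.6%) were higher and 17 (22.1%) lower, with a median of 0.03, beside 17.8% higher and 18.8% lower of all genes. Mrpl51 had the largest rise, from 808, 688 and 670 counts in WT to 1334, 1196 and 1247 in cKO, a log2 fold change of 0.80. Mrpl54 had the largest fall at −0.37, from 1361, 1506 and 1484 counts in WT to 1148, 1070 and 1152 in cKO. Single mitochondrial members thus moved further than any cytosolic member, and in both directions, and whether the sets differ was not tested. The median level of the mitochondrial genes was 1203 normalized counts, against 46866 for the cytosolic members, so the sets are not matched in level.

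**Figure D5:**
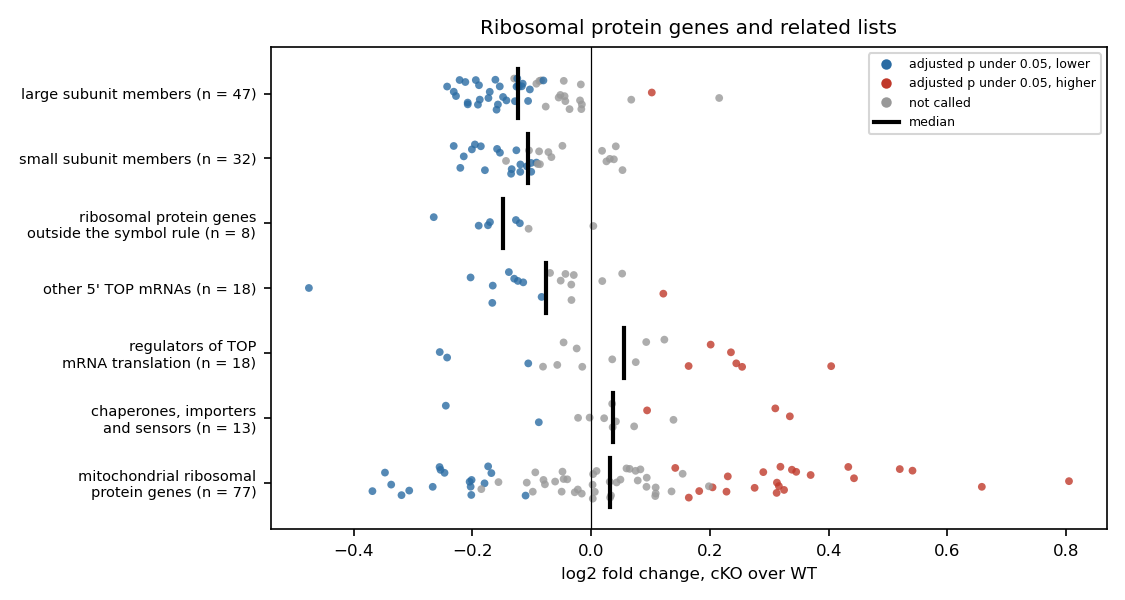
Log2 fold change of cKO over WT for every gene of the large and small subunit members and of 5 related lists. Each point is a gene, blue if called lower, red if called higher and grey if not called, and the bar is the list's median. The medians lie at −0.12 and −0.11 for the subunits and at 0.03 for the 77 mitochondrial genes, which spread from −0.37 to 0.80.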

How the data were processed

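mRNA-seq data of splenic NK cells were analysed for 3 WT and 3 cKO samples, grouped by the genotype in the labels. The authors aligned reads to GRCm38 with HISAT2 and counted them per gene with featureCounts. The authors deposited a signal, the count of each gene divided by the DESeq2 size factor of its sample. The authors used HISAT2 2.0.5, featureCounts 1.5.0-p3 and DESeq2 1.16.1, per the submitters' processing notes, while the study's methods name other versions. The annotation and the strand setting are not given in the sources used here. The table the authors deposited also holds the mean of the 6 columns, their log2 fold change with its error, a Wald score and p-values, and none of these was used.

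A filter that asked for 1 or more in 3 or more samples passed all 14490 genes and all 79 members. The genotypes were compared on log2(value + 1) with limma 3.58.1 in R 4.3.3, eBayes with trend, in a two-sided test whose p-values were adjusted by Benjamini and Hochberg's method across the table. Only the limma fit was tested on simulated counts. Genes varied independently in these, so a shift shared by many genes of a sample was not covered. A fold change on this scale understates that of low genes. Positions, lengths and GC content came from GENCODE vM21, which matched 97.3% of genes, with 1 transcript of median length per gene. The annotation and promoters were matched by symbol, and sequences came from RefSeq. Replicates of a genotype differed beyond counting noise (chi-square per degree of freedom of at least 5.5).

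Members and gene lists were chosen with earlier results of these data known. Named members were the 6 largest called rises (1 existed) and falls, the 3 highest and lowest per kb and members with known roles, and the other lists gave their largest called rise and fall and set genes. Alternatives were a pseudocount of 0.1, other filters, equal totals, limma-voom, the replicate block, a GC and length correction and single omissions. Rps21, Rps7, the members called lower in every setting and other genes named within lists were picked after their values were seen. Values of some single genes are not reported here.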

Additional observations from a re-analysis of the deposited data

How the results depend on the processing

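With 3 samples per genotype and normalized values, changes of about 0.1 on the log2 scale are at the edge of what limma called. Adding 0.1 in place of 1, dropping the filter or setting it at 1 CPM, limma-voom and the addition of processed copies left the counts of members within 1.5 times and the medians within the replicate spread. With equal totals 31 members were lower and 5 higher (large 2, small 3), and 11 of the small subunit were lower. Centring on genes with a mean of at least 5000, chosen after seeing the data, gave 4 higher (large 2, small 2) and 11 small subunit members lower. The GC and length correction gave 3 higher (large 2, small 1), and the same 3, 2 and 1 with the replicate block. Without WT-2 and cKO-3, also chosen after seeing the data, 27 were lower (large 18, small 9) and 4 higher (large 2, small 2), with medians of −0.0561 for all, −0.0686 for the large and −0.0485 for the small subunit. Over single omissions, 36 to 55 members were lower (large 22 to 32, small 13 to 23) and 0 to 2 higher (large 0 to 2, small 0 to 1), with medians of −0.1371 to −0.0826 (large −0.1411 to −0.0938, small −0.1319 to −0.0743). In the same fits 33.7% (without cKO-1) to 38.3% (without cKO-2) of the genes with a mean of at least 5000 were lower. The log2 ratio of large to small subunit counts turned to 0.0076 without the 3 most abundant members, all of the small subunit. The causes were not tested.

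Deviations of same-numbered samples correlated at −0.04 to 0.056 over all genes, and at −0.233, 0.409 and 0.281 for numbers 1, 2 and 3 over genes with a mean of at least 5000. Since 1 pair was below 0 on either set, the numbers were not taken to pair samples. With the replicate block 56 members were lower, the 47 among them, and 2 higher, both large (Rpl35 and Rpl41). In that fit 70.9% of the members, 40.4% of the genes with a mean of at least 5000 and 19.7% of all genes were lower. The 2 count models listed as alternatives were not run. The deposited values are counts divided by a size factor, and a check of their unit could not take the step worth 1 read. Reads recovered from that step were used only to describe depth and counting noise.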

Other observations

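Beside the members, 80 processed copies named after ribosomal protein genes (symbols ending in -ps and a number) were listed, with a median of 71.0 normalized counts. Of these 6 (7.5%) were lower and 2 (2.5%) higher in cKO by limma, beside 18.8% and 17.8% of all genes. The median log2 fold change of the 80 copies was −0.16. Copies of this kind can share reads with their parent genes, so their values are uncertain, and those named here were chosen after their values were seen. Rpl27a-ps1 had 83.4, 112 and 97.6 counts in WT and 250, 207 and 206 in cKO, a rise of 1.18 ± 0.17 (SE, limma adjusted p = 5.13e-06), while its parent Rpl27a fell by 0.12 on the log2 scale. It lies at chr10:61309830-61310277 on GRCm38, and the nearest listed gene is Prf1, the pore-forming protein of cytotoxic granules, at 5150 bases, which was lower at −0.18. Rpl36a-ps3 had 44.7, 82.1 and 53.7 counts in WT and 92.5, 79.1 and 114 in cKO, with overlap (0.69, limma adjusted p = 0.0357). The most abundant copy called, Rpl17-ps10, had 4917, 5037 and 5032 counts in WT and 4037, 4514 and 4416 in cKO, a change of −0.21 beside −0.19 for Rpl17. Rpl31-ps12, which overlaps Spag6l, had 28.8, 22.6 and 40.0 counts in WT and 6.10, 14.5 and 7.32 in cKO, a change of −1.66.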
